A study of Homo sapiens with 6 samples.

Results

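Heparan sulfate is a sulfated glycosaminoglycan carried by proteoglycans at the cell surface and in the matrix. The 8 genes described here encode enzymes that set its 2-O- and 6-O-sulfate pattern and that edit or cleave the finished chain: GLCE, HS2ST1, HS6ST1, HS6ST2, HS6ST3, SULF1, SULF2 and HPSE. They were chosen by name, and their probe sets by the RefSeq accession in the probe set identifier. Each of the 8 genes had 1 probe set, so they made up 8 of 1259 probe sets and 8 of 927 named genes in the table.

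RKO, a long-established line of human colon carcinoma cells, was profiled by array as 2 populations. The first, RKO C2, was grown from a clone of RKO. RKO C2 F3 was derived from RKO C2 by FACS, keeping cells low in u-PAR, the urokinase receptor, and is called clonal in the sample titles and only a population in the design text. Both are thus descendants of 1 clone, no treatment is named in the labels for either, and each has 3 arrays with replicate numbers 1 to 3. The study asked which glycosylation enzyme is deficient in cells where u-PAR matures incompletely. The sample titles also carry a date-like code, different for each replicate number and shared by the C2 and F3 arrays of that number. What the code dates is not stated, nor whether the replicates are separate cultures, and p-values therefore reflect only the spread among these samples, possibly a technical one.

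During synthesis in the Golgi, an epimerase turns part of the glucuronate of the chain into iduronate, a 2-O-sulfotransferase sulfates mainly that iduronate, and 6-O-sulfotransferases act on glucosamine. Outside the cell, the SULF endosulfatases remove 6-O-sulfates again, and heparanase cuts the chain into shorter pieces. The resulting pattern is known to govern how growth factors such as the FGFs bind heparan sulfate and their receptors.

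No member passed the test between RKO C2 F3 and RKO C2. Values are log2 expression as deposited, so that a difference of 1 is a doubling, and the test was limma, a linear model that steadies each probe set's variance with that of the others, with p-values adjusted by Benjamini-Hochberg over the whole table. In limma, 0 of the 8 probe sets passed an adjusted p of 0.05, 0 of 8 had an unadjusted p under 0.05, and the populations overlapped for all 8. Over all 1259 probe sets the corresponding shares were 0.0794%, 5.40% and 10.3%. With the replicate number as a block, which compares same-numbered arrays of the populations, 0 of 8 passed (0.159% of all probe sets) and 0 of 8 had an unadjusted p under 0.05 (8.02% of all). Against shares this small, a count of 0 in 8 does not set the members apart from the rest of the table. The log2 changes, F3 minus C2, ran from -0.14 for HS2ST1 to 0.056 for SULF2, with a median of -0.033 against -0.0064 over all probe sets. The smallest limma adjusted p among the members was 0.97, and 0.66 with the block. Taking the bound farther from 0 of each 95% interval, the widest was a 1.27-fold fall of HS2ST1. The intervals thus left out larger changes than that in the deposited signal of each of the 8 genes. They do not cover compression of the changes of dim probe sets by the array processing.

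**Figure D1:**
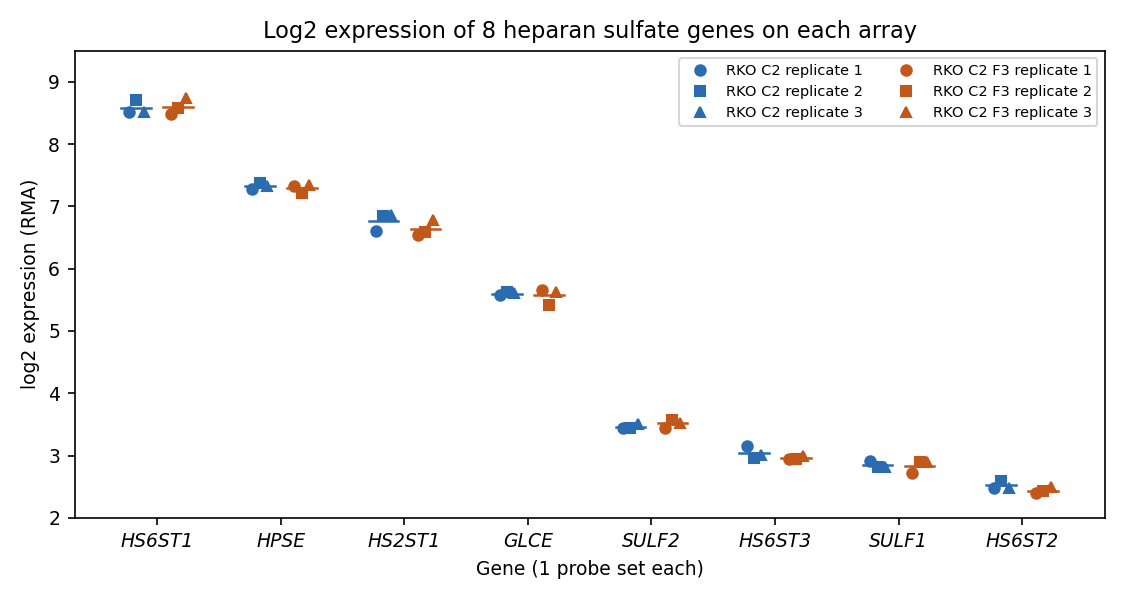
Log2 expression (vertical axis) of the 8 genes on each of the 6 arrays. Blue points are RKO C2 and orange points RKO C2 F3, marker shapes give the replicate number, and short lines are the means of 3 arrays. HS6ST1, HPSE, HS2ST1 and GLCE lie above 5 and the other 4 genes below 4, with the populations overlapping in every gene.

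The 8 genes fell into 4 with a mean log2 expression above 5 and 4 below 4. The brighter 4 were HS6ST1 at 8.59, HPSE at 7.31, HS2ST1 at 6.70 and GLCE at 5.59. The dimmer 4 were SULF2 at 3.49, HS6ST3 at 3.00, SULF1 at 2.84 and HS6ST2 at 2.48. Of all probe sets, 27.3% lay below 4. In this order neighbours did not overlap on any array, the narrowest gap being 0.043 between the lowest HS6ST3 and the highest SULF1 value. The signal of a probe set also depends on its own probes, so this order is one of signals and not of transcript amounts. The table carries no detection call, so the dimmer genes could not be called absent.

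GLCE encodes the glucuronyl epimerase, whose product, iduronate, gives the chain its flexibility. Its log2 expression was 5.57, 5.63 and 5.61 on C2 arrays 1 to 3 and 5.66, 5.42 and 5.63 on F3 arrays 1 to 3. The single low value was F3 replicate 2, and the other 2 F3 arrays lay above all 3 C2 arrays. This gave a log2 change of -0.031 (SE 0.071, 95% interval -0.19 to 0.13, limma adjusted p = 1.00). Without F3 replicate 2, its lowest array, the change could only rise, and it was 0.043 with a limma adjusted p of 1.00. The 2 remaining F3 arrays then lay above the 3 C2 arrays, which that omission fixed in advance. In the same fit the populations did not overlap for 17.6% of all probe sets.

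HS2ST1, the only heparan sulfate 2-O-sulfotransferase in the human genome, had the largest change and the smallest p of the 8. Its log2 expression was 6.61, 6.85 and 6.86 in C2 and 6.54, 6.59 and 6.79 in F3. C2 replicate 1 lay among the F3 values, and F3 replicate 3 lay above it, so the populations overlapped. The mean went from 6.77 ± 0.14 (SD, n = 3) to 6.64 ± 0.13 (SD, n = 3), a log2 change of -0.14 (SE 0.090, 95% interval -0.34 to 0.072). The limma p was 0.17 unadjusted and 0.97 adjusted.

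F3 was the lower array in all 3 HS2ST1 pairs of the same replicate number, with differences of -0.075, -0.26 and -0.068. Of all probe sets, 17.8% were lower in F3 in all 3 pairs, and HS2ST1 and HS6ST3 were the 2 such members. Within the block on replicate number, the SE of HS2ST1 was 0.059 and its limma p 0.060 unadjusted and 0.66 adjusted. Without C2 replicate 1 the change was -0.22, with a limma adjusted p of 0.83 and an unadjusted one of 0.034. Without F3 replicate 3 it was -0.21, with a limma adjusted p of 0.88 and an unadjusted one of 0.046. These were the lowest C2 and the highest F3 array, so leaving either out could only deepen the fall. Without any other single array the change lay between -0.110 and -0.085, with an unadjusted limma p of 0.34 to 0.42. Pair 2 held the largest difference, and the size of the change depended on which array was left out. It also depended on the scaling. With quantile normalization the HS2ST1 change was -0.071, with a limma p of 0.40 unadjusted and 0.97 adjusted.

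The probe sets of other genes that most resembled HS2ST1 across the 6 arrays, after centring each on its own mean, were those of EEF1A1, a translation elongation factor, LAMP2, a lysosomal membrane protein, and SMNDC1, a splicing factor. Their root mean square differences from HS2ST1 were 0.037, 0.039 and 0.042 on the log2 scale, where the median probe set differed by 0.14. EEF1A1 read 7.83, 8.03 and 8.04 in C2 and 7.74, 7.84 and 8.07 in F3. As in HS2ST1, its replicate 1 arrays were the lowest of each population. The changes of the 3 genes were -0.082, -0.065 and -0.11, and none passed the threshold (limma adjusted p = 1.00, 1.00 and 0.97).

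The HS6ST enzymes place the 6-O-sulfate on glucosamine, and the array held all 3 paralogs. The promoters of HS6ST1 and HS6ST2 are shown as an example of paralogs whose promoters differ in base composition, with nothing drawn from it about their signals. The sequences run from 250 bases before to 50 after the annotated start, 5′ to 3′ along the gene, from RefSeq on GRCh38.p14. HS6ST1 is at chr2:128318819-128319118 and HS6ST2 at chrX:132961321-132961620, both on the minus strand. Capitals mark GC boxes, the letters GGGCGG or, for the other strand, CCGCCC, with overlapping matches counted separately.
HS6ST1: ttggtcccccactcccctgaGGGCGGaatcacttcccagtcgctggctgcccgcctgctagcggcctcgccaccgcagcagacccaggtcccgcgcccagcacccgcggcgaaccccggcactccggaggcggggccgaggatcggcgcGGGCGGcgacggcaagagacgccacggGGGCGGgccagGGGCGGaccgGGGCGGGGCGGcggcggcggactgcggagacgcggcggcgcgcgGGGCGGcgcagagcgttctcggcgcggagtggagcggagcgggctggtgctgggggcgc
HS6ST2: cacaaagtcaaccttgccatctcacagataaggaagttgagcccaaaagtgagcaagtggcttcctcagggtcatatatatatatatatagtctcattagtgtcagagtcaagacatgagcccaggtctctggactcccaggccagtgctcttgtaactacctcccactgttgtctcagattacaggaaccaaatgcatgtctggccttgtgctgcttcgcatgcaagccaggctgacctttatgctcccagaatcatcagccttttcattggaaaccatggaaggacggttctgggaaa
The HS6ST1 sequence is 79.7% G and C with 47 CpG dinucleotides and 7 GC boxes, among them 1 overlapping pair. The HS6ST2 sequence is 47.3% G and C with 2 CpG dinucleotides and 0 GC boxes. The medians over 35116 promoters of the same length were 58.7% and 14 CpG dinucleotides, and 45.0% held a GC box.

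Promoter sequences were at hand for 7 of the 8 genes. A GC box was found in the single window of GLCE (5 boxes) and HS2ST1 (4 boxes), in some of the alternative windows of HPSE and SULF2, and not in that of HS6ST3, which is 65.0% G and C with 19 CpG dinucleotides. The 3 HPSE windows were 56.7%, 66.0% and 66.3% G and C, and the 4 SULF2 windows 55.7%, 56.7%, 82.3% and 55.7%. Of the 4 SULF2 windows, only that at 82.3% exceeded the HS6ST1 window in G and C. The start used in RKO cells is not known here, and a link between base composition and signal was not tested. A match describes these letters in this window only.

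HS6ST1 read 8.52, 8.71 and 8.52 in C2 and 8.48, 8.58 and 8.74 in F3. The highest and the lowest of the 6 values were both F3 arrays, so the C2 range lay inside the F3 range. On average HS6ST1 had a log2 change of 0.019 (SE 0.084, 95% interval -0.17 to 0.21, limma adjusted p = 1.00), and the 3 pair differences were -0.036, -0.13 and 0.23. The change was negative without C2 replicate 1, C2 replicate 3 or F3 replicate 3, with values down to -0.052.

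HS6ST2 read 2.49, 2.60 and 2.48 in C2 and 2.39, 2.43 and 2.49 in F3. Only F3 replicate 3 reached into the C2 range. The log2 change was -0.081 (SE 0.057, 95% interval -0.21 to 0.049, limma adjusted p = 0.97). Its mean level was the 25th lowest of the 1259 probe sets.

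HS6ST3 read 3.16, 2.95 and 3.01 in C2 and 2.95, 2.95 and 2.99 in F3. C2 replicate 1 stood above the other 5 values, which spanned less than its distance to them. Its log2 change was -0.078 (SE 0.064, 95% interval -0.23 to 0.069, limma adjusted p = 0.97). Without C2 replicate 1 it was -0.019. The 3 pair differences were -0.21, -0.0022 and -0.020, so nearly all of the change lay in pair 1.

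**Figure D2:**
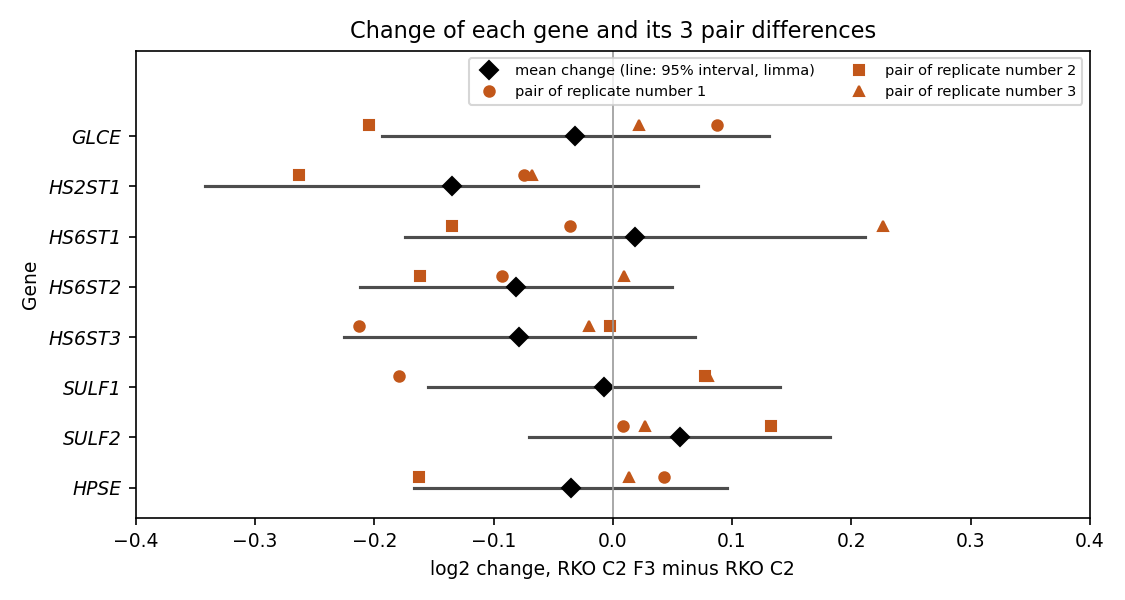
Log2 change, RKO C2 F3 minus RKO C2 (horizontal axis), of each of the 8 genes. Diamonds are mean changes with 95% limma intervals as lines, and orange markers are the differences within the pairs of replicate number 1, 2 and 3. Each interval includes 0, and HS2ST1 at -0.14 lies farthest from it.

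SULF1 and SULF2 encode the extracellular sulfatases that strip 6-O-sulfate from finished chains. SULF1 read 2.90, 2.82 and 2.81 in C2 and 2.73, 2.90 and 2.89 in F3. F3 replicate 1 was the lowest of the 6 arrays and the other F3 arrays fell within the upper part of the C2 range. For SULF1 the log2 change was -0.0073 (SE 0.064, 95% interval -0.15 to 0.14, limma adjusted p = 1.00), with pair differences of -0.18, 0.077 and 0.080. Its sign turned with median centring (0.0080), quantile normalization (0.0019) and array weights (0.0080).

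SULF2 read 3.44, 3.44 and 3.50 in C2 and 3.45, 3.57 and 3.53 in F3. It was the only member with a positive difference in all 3 pairs, of 0.0088, 0.13 and 0.027. The share of all probe sets higher in F3 in all 3 pairs was not counted, which also limits what is said of GPC1 below. F3 replicates 2 and 3 lay above all C2 arrays, while F3 replicate 1 lay within them. The log2 change was 0.056 (SE 0.055, 95% interval -0.070 to 0.18, limma adjusted p = 0.97). For the deposited signal, the interval leaves out a rise above 1.13-fold. It does not cover compression of the changes of dim probe sets by the array processing. The change stayed positive with each array left out in turn, from 0.028 to 0.090.

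HPSE encodes heparanase, the endoglucuronidase that cleaves heparan sulfate chains. Its values were 7.28, 7.38 and 7.33 in C2 and 7.33, 7.22 and 7.34 in F3, and F3 replicate 2 was the lowest of the 6. The log2 change was -0.035 (SE 0.057, 95% interval -0.17 to 0.096, limma adjusted p = 1.00). It was 0.0027 without F3 replicate 2 and 0.033 after quantile normalization. Pair 2 held the one negative difference, -0.16, beside 0.043 and 0.014 in pairs 1 and 3.

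F3 replicate 2 was the lowest of all 6 arrays for both GLCE and HPSE, and pair 2 had the most negative difference in GLCE, HS2ST1, HS6ST1, HS6ST2 and HPSE. Outside the members, pair 2 was also the most negative in EXT1, EXT2, XYLT2 and PAPSS2, and not in MET or HS3ST6. The shares over all probe sets were not counted, so neither pattern is read as a trait of the members. In all, 6 of the 8 changes were negative, where 54.6% of all probe sets were. With median centring 5 of 8 were negative (44.2% of all), and with quantile normalization 4 of 8 (48.1% of all), so the balance of signs moved with the scaling. The median change over all probe sets stayed between -0.013 and 0.0090 in these and the other fits.

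**Figure D3:**
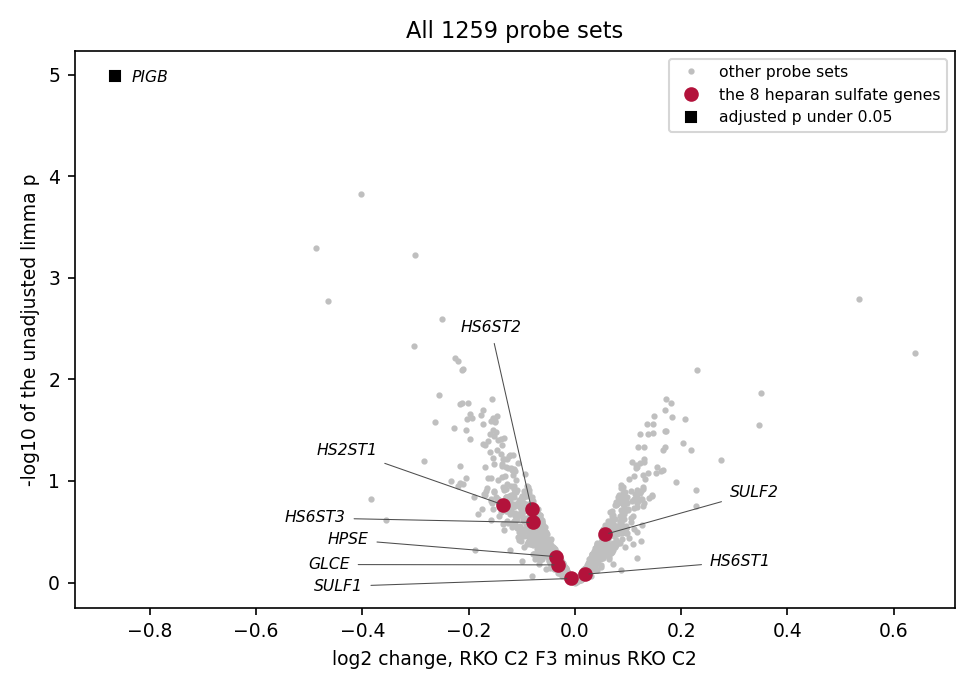
Log2 change, RKO C2 F3 minus RKO C2 (horizontal axis), against -log10 of the unadjusted limma p (vertical axis) for 1259 probe sets. The 8 genes, in red, lie between -0.14 and 0.056 near the base, and PIGB, the black square, is the 1 probe set with an adjusted p under 0.05.

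The rest of heparan sulfate metabolism was read from 8 lists, in which 0 genes passed the limma threshold in either direction. Of 9 chain polymerases and N-deacetylase/N-sulfotransferases, 6 changes were negative, with a median of -0.083. The copolymerase genes EXT2 and EXT1 had the smallest p, at -0.11 (SE 0.073, adjusted p = 0.97 in limma) and -0.11 (SE 0.096, adjusted p = 0.97 in limma). All 7 heparan 3-O-sulfotransferases were measured, which add the rare modification that antithrombin recognises, and their median was 0.0013. HS3ST6 was at 0.11 and HS3ST2 at -0.037. The 5 measured linker enzymes, of 6 listed, had a median of -0.054, with the xylosyltransferase gene XYLT2 at -0.10 and the galactosyltransferase gene B3GALT6 at -0.054.

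Sulfation of the chain needs the donor PAPS, made by the PAPSS synthases and carried into the Golgi by transporters. Of 4 measured genes of donor supply, of 6 listed, PAPSS2 had the largest difference in the 8 lists. It read 4.80, 4.88 and 4.80 in C2 and 4.47, 4.13 and 4.42 in F3. All 3 F3 arrays lay below all 3 C2 arrays, and pair differences were -0.33, -0.74 and -0.38. The log2 change was -0.49 (SE 0.089, 95% interval -0.69 to -0.28), which did not pass over all probe sets (limma adjusted p = 0.19; 0.13 to 0.55 over the alternatives, 0.23 with the replicate block). The other synthase gene, PAPSS1, named here outside the rule and after its values were seen, was at 9.61 in C2 and 9.63 in F3, a change of 0.020. The transporter gene SLC35B3 was at -0.051.

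**Figure D4:**
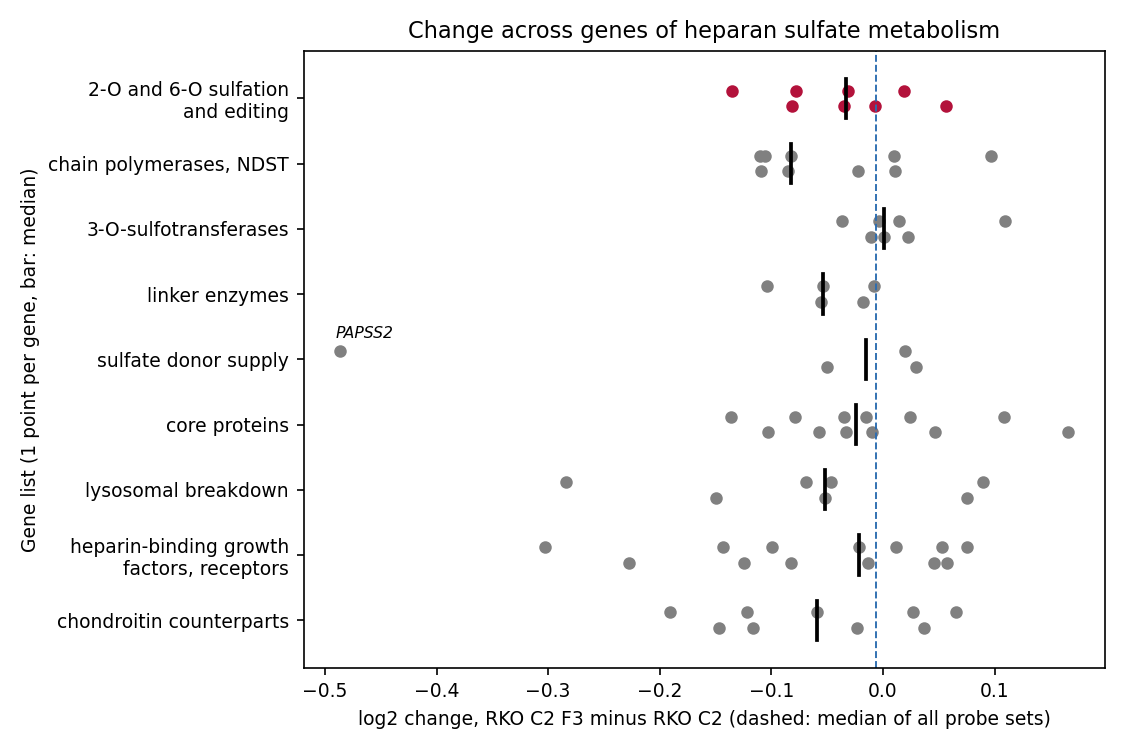
Log2 change, RKO C2 F3 minus RKO C2 (horizontal axis), of single genes in the 8 genes of 2-O and 6-O sulfation and editing (red) and in 8 other gene lists (grey). Black bars are list medians, and the dashed line is the median of all probe sets at -0.0064. PAPSS2 at -0.49 stands apart, while the list medians lie between -0.083 and 0.0013.

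Among 12 measured core proteins, of 14 listed, the median change was -0.024. GPC1, encoding the glypican-1 core protein, was at 0.17 (SE 0.083, limma adjusted p = 0.97), and each F3 array was above its C2 partner, by 0.15, 0.14 and 0.21. GPC4 was at -0.14. The list of lysosomal breakdown also took in HPSE2 (0.075), which is not one of its lysosomal hydrolases. With HPSE2 counted, the 7 measured genes of 10 listed had a median of -0.052. There GUSB, the lysosomal beta-glucuronidase, was at -0.15, and IDS, the iduronate-2-sulfatase, was at -0.28, while its second probe set was at -0.021. Neither passed in limma (adjusted p = 0.84 and 0.97). The populations did not overlap for 3 of the 7 genes, against 10.3% of all probe sets. These were GUSB and SGSH (-0.069), lower in F3, and IDUA (0.090), higher in F3. SGSH, IDUA and HPSE2 are named outside the rule and after their values were seen, and this count was picked likewise. The populations also did not overlap for 1 of 4 genes of donor supply and 2 of 13 growth factors and receptors. The count was 1 of 9 for the chondroitin and dermatan counterparts and 0 in each remaining list.

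Of the heparin-binding growth factors and their receptors, 13 of 15 listed genes were measured, with a median of -0.022. FGFR2 was at -0.30 and MET, the HGF receptor, at -0.23 (limma adjusted p = 0.73 and 0.84). The 9 measured chondroitin and dermatan counterparts, of 10 listed, had a median of -0.059, with CHST11 at -0.12 and CHST15 at -0.19. The members' median of -0.033 lay between these list medians, and the spread of single genes in each list was wider than the distance between medians.

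Across the table, medians of log2 expression ran from 5.48 to 5.51 on the 6 arrays, any pair of arrays correlated with r of at least 0.9981, and the median within-population SD was 0.083. PIGB, a mannosyltransferase of the GPI anchor, was the 1 probe set called, at -0.87. The call was lost without C2 replicate 2, C2 replicate 3 or F3 replicate 1 (limma adjusted p = 0.057, 0.15 and 0.097). Of 12 epithelial markers, 3 were measured, from MUC1 at 7.11 to MUC13 at 4.18, too few to check the colon carcinoma label. The 11 leukocyte markers ran from 2.49 (KLRC1) to 5.80 (SIGLEC1) and the 7 fibroblast and endothelial markers from 2.30 (LUM) to 5.04 (ICAM2). Mean levels of the leukocyte list were 3.78 to 3.82 in C2 and 3.78 to 3.87 in F3, and those of the fibroblast and endothelial list 3.54 to 3.59 and 3.47 to 3.53. Of the 21 marker genes of the 3 lists 0 passed in limma, and 5 (23.8%, against 5.40% of all probe sets) had an unadjusted p under 0.05. Those 5, named after their values were seen, were CD72 at 0.23, KLRC3 at 0.17 and SIGLEC5 at 0.17, and KLRC1 at -0.21 and ICAM2 at -0.20. The marker lists were drawn up with earlier results on these genes known, so the share is not independent evidence, and their part in the members' values was not tested.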

How the data were processed

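RNA was isolated with Trizol and turned into biotinylated cRNA for Affymetrix arrays, per the labels' protocols. The deposited log2 values, 1 per probe set and array, come from RMA, per the submitters' processing notes. For RMA's version, the definitions of the probe sets and their genome build, nothing is given in the sources used here. This method makes arrays alike in distribution and compresses changes of dim probe sets, which intervals here do not cover. All 6 columns were used.

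Accessions, stripped of their versions, were looked up in RefSeq's gene table for GRCh38: 1043 of 1259 probe sets had 1 symbol, and 216 had none and stayed in the tests. Populations (3 F3 and 3 C2 arrays) were compared by lmFit and eBayes of limma 3.58.1 under R 4.3.3. Tests were two-sided, adjusted over all probe sets by Benjamini-Hochberg, at a threshold of 0.05 and with 95% intervals. For lists, a gene's probe set with the highest mean was used. The script for this fit was tested on simulated data.

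Named genes were the 8 members, the 2 smallest p in each list, the 3 probe sets most like the member with the smallest p, and the brightest and dimmest markers. Members and lists were chosen with earlier results of these data known. Same-numbered arrays share a date-like code in their titles and deviated together from the means of their populations, with r = 0.52, 0.18 and 0.26. Arrays of unlike number had r from -0.38 to 0.15, the latter close to the 0.18 of number 2. Each population's deviations sum to 0 over its 3 arrays, so positive r at like numbers forces negative r elsewhere, and the contrast is partly arithmetic. The numbers were treated as pairing the samples, mainly from the shared code, with these correlations as a weak guide. The labels do not say what the code dates. The fit without the block, as planned, is the main one, and all intervals come from it and so ignore the pairing. The block made the SE smaller for HS2ST1 (0.059 against 0.090), IDS (0.063 against 0.13) and GPC1 (0.049 against 0.083). It made it larger for SULF1 (0.067 against 0.064) and HPSE (0.059 against 0.057). The blocked limma adjusted p was 0.47 for IDS and 0.52 for GPC1. Other blocked values are given only for HS2ST1, PAPSS2 and the counts of calls. Alternatives were the replicate block, median centring, quantile normalization, leaving out probe sets with a mean under 4, an intensity trend with robust prior, array weights, leaving out each array, 1 value per gene and, for the number of calls, an ordinary two-sample test. The number of arrays limits the precision.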

Additional observations from a re-analysis of the deposited data

How the results depend on the processing

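Over the 13 alternatives, 0 of the 8 members passed an adjusted p of 0.05, the range being 0.66 to 1.00; 4 members could not be tested where dim probe sets were left out. The replicate block, intensity trend with robust prior, 1 value per gene and leaving out dim probe sets cannot alter a member's change. Their signs were fixed in advance. With those fits counted, the change kept its sign in 89 of 100 member fits. In the other 11 it turned, the cause not tested: SULF1 was at 0.0080 with median centring, 0.0019 with quantile normalization and 0.0080 with array weights, HPSE was at 0.033 with quantile normalization, and 7 turns came from single arrays left out. With each array left out, changes ran from -0.076 to 0.043 for GLCE, -0.22 to -0.085 for HS2ST1, -0.052 to 0.084 for HS6ST1, -0.11 to -0.043 for HS6ST2, -0.12 to -0.019 for HS6ST3, -0.037 to 0.049 for SULF1, 0.028 to 0.090 for SULF2 and -0.059 to 0.0027 for HPSE. It gave 0 to 1 members at an unadjusted p under 0.05 (HS2ST1, without C2 replicate 1 or F3 replicate 3), against 0 with all arrays. Members whose populations did not overlap numbered 1 to 3, against 0, while over all probe sets the share rose from 10.3% to between 17.6% and 21.0%; the 3 came without F3 replicate 3.

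The probe sets called numbered 2 with the replicate block, 0 in the ordinary two-sample test (67 at an unadjusted p under 0.05, where limma had 68) and 0 to 2 with single arrays left out. The block changed no call of a member or a named gene. With quantile normalization B3GALT6 was at 0.015, SLC35B3 at 0.030 and LAMP2 at 0.0040. B3GALT6 (-0.10 to 0.021) and HS3ST2 (-0.12 to 0.031) also changed sign with single arrays left out. Signal over background is unknown for the 4 dimmer members, whose intervals cover the spread between arrays and not compression by RMA near background, which was not tested.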
